A study of Homo sapiens with 6 samples.

Results

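Genes that cells switch on when they sense an interferon were followed together with genes of interferon receptors and interferon regulatory factors. The cells were LP-1/Cfz, a carfilzomib-resistant line, and the parental LP-1 cells it was derived from. Of the 56 genes measured, 23 were lower in LP-1/Cfz cells (41.1%) and 1 was higher, beside 10.0% of all genes lower and 6.72% higher. The lower genes included 4 interferon regulatory factors (IRF7, IRF2, IRF1 and IRF9), the receptor chains IFNAR2 and IFNGR1, and 17 antiviral and other effector genes led by SP110 and HERC5. The other 32 genes did not pass the test, among them ISG15, IFIT1, OAS3 and RSAD2.

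Interferons are secreted proteins that warn cells of viruses and other threats. Type I interferons bind a receptor made of IFNAR1 and IFNAR2, and interferon gamma binds one made of IFNGR1 and IFNGR2. Kinases of the JAK family on these receptors then phosphorylate STAT proteins, which enter the nucleus. Effector genes carry an interferon-stimulated response element, which IRF9 binds together with STAT proteins, and other IRF proteins bind many of the same elements. Targets of interferon gamma often carry a gamma-activated site, which STAT proteins bind without IRF9.

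The genes came from a written list of 59 interferon genes, of which 10 are receptor, STAT and IRF genes and 49 are effectors. A gene was measured by the probe sets (groups of short DNA probes on the array) annotated with its symbol alone, and IRF1 was the marker given for the list. This gave 56 genes on 109 of the 54613 probe sets, out of 19775 genes in all, with 31 of the 56 on more than 1 probe set. Among them were 9 of the 10 receptor, STAT and IRF genes and 47 of the 49 effectors. STAT2, IFI30 and USP18P1 had no such probe set and were not analysed here. DDX58 was found under its current symbol, RIGI. No gene was left out for low values.

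LP-1 is a line of human multiple myeloma, a cancer of plasma cells. LP-1/Cfz is the LP-1 derivative that grows in 12 nM carfilzomib, an inhibitor of the proteasome, and its cells were grown for 1 week without the drug before RNA was taken. The LP-1 cells had never been selected in the drug, and by the labels the medium of both held 4% serum and no interferon is named. RNA of 3 LP-1/Cfz and 3 LP-1 samples was hybridised to Affymetrix human genome arrays, 1 array a sample. All LP-1/Cfz samples are of the same selected line, so selection in carfilzomib and any other change in that line cannot be told apart. Nothing in the labels says that the samples were separate cultures, so each p-value reflects the spread among these samples alone, and that spread may be technical.

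The deposited values are log2 values centred for each probe set on a baseline that the sources used here do not state. A negative value is therefore not a low level of RNA, and differences between the groups can be read where levels cannot. For the same reason it cannot be read which genes were above the background of the arrays. A gene's value is the mean of its probe sets, and a log2 fold change is LP-1/Cfz minus LP-1. A gene was called where limma's adjusted p (Benjamini-Hochberg over all 19775 genes) was under 0.05.

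LP-1/Cfz replicate 3 stood apart from the other arrays. The interquartile range of its values was 0.338, while those of the other 5 arrays lay between 0.23 and 0.264, and they correlated at 0.891 and 0.903 with the arrays of its own group, which correlated at 0.941 with each other. Without this array all 23 of the lower genes were still called lower, LGALS3BP was no longer called, and IRF8 and MX1 were added. Of the plasma cell markers, 4 of 10 were higher in LP-1/Cfz cells (SDC1, TNFRSF17, MZB1 and NSD2) and CD38 was lower by 1.07 on the log2 scale. Among markers of other cells, GNLY was lower (log2 fold change -0.30) and the other 6 T and NK cell, 5 myeloid, 3 plasmacytoid dendritic and 6 stromal markers measured did not pass. GNLY was called on the mean of its 2 probe sets, of which 0 passed. Centred values do not show whether any of these markers was present, so their part in the results was not tested. In RNA of bulk cultures, fewer cells of a type and less RNA per cell cannot be told apart.

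The 23 lower genes were 41.1% of those measured, beside 10.0% of all genes called lower, and the 1 higher gene stands beside 6.72% of all genes. The median log2 fold change of the 56 genes was -0.14, beside 0.017 over all genes. The 3 LP-1/Cfz arrays lay wholly under the 3 LP-1 arrays for 27 of the genes and wholly above them for 5, beside 19.3% and 16.6% of all genes. By probe set, 41 of 109 were lower and 0 were higher in limma's test over all probe sets, beside 6.76% and 4.25% of all probe sets. At an unadjusted p under 0.05, 47 were lower and 3 were higher, but the share of all probe sets at that threshold was not computed. A fold change of 1.7 or more downwards was met by 17 of the 109 probe sets, beside 1.14% of all. The median value of the 56 genes on each array was -0.25, -0.26 and -0.26 in LP-1/Cfz cells and -0.13, -0.11 and -0.087 in LP-1 cells.

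**Figure D1:**
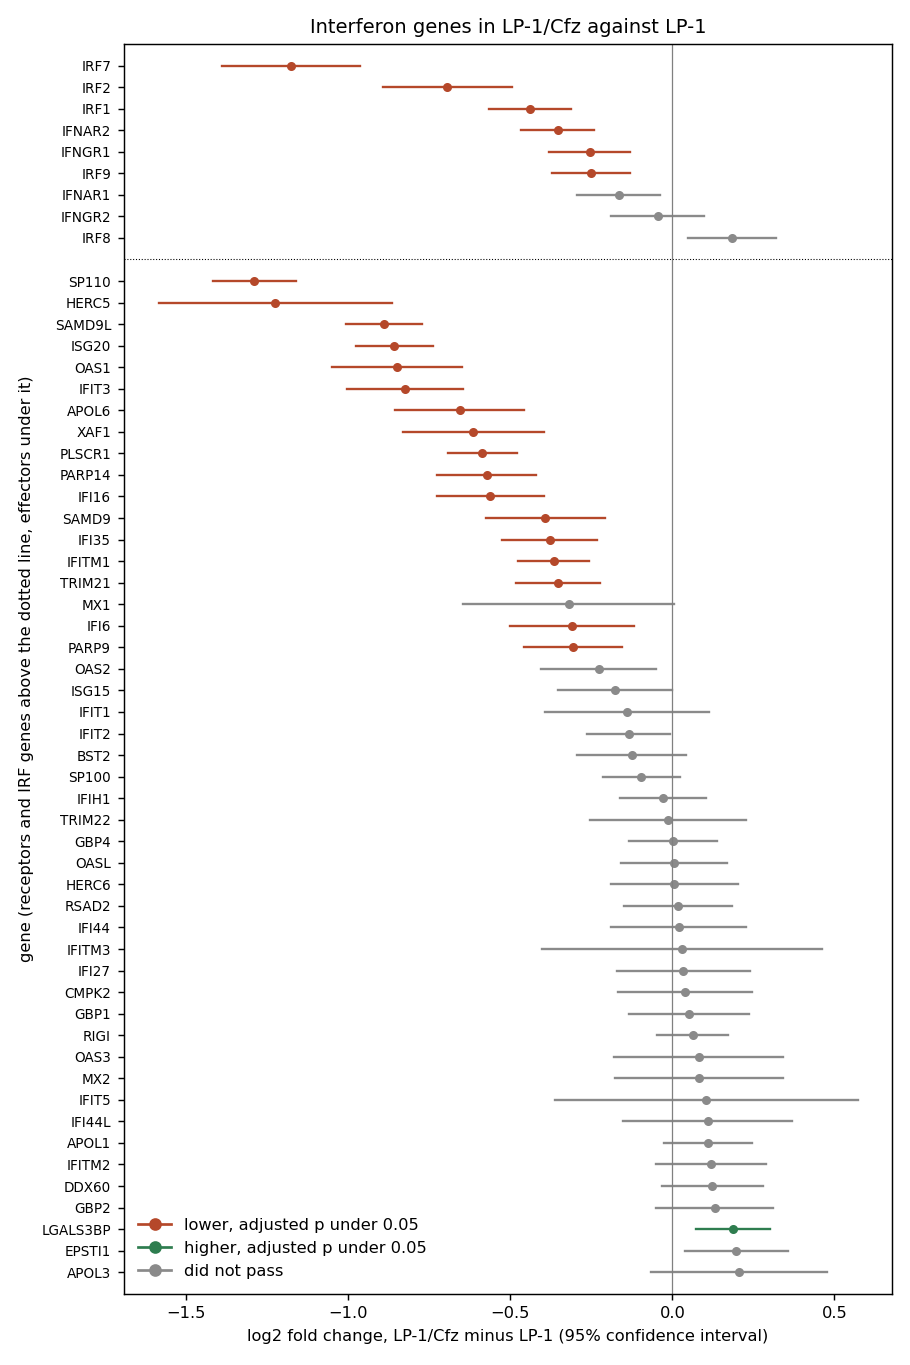
Log2 fold change (LP-1/Cfz minus LP-1) of each of the 56 genes on the horizontal axis, with its 95% confidence interval from limma as a line. The 9 receptor and IRF genes stand above the dotted line and the 47 effectors under it. The 23 lower genes reach down to -1.29 (SP110), while the genes that did not pass lie between -0.32 and 0.21.

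Promoter sequences show the elements that the STAT and IRF proteins of this pathway bind. RefSeq windows (GRCh38.p14) from 250 bases before to 50 after a gene's start were at hand for 43 of the 56 measured genes. The core of the response element, GAAA, any 2 bases and GAAA again, was searched on both strands (on the other strand it reads TTTC, 2 bases and TTTC), and so was the core of the gamma-activated site, TTCNNNGAA, which reads the same on both. The stretches printed here run from base -160 to base -1 of the gene's strand, with matches in capitals. They show a member with a gamma-activated site (IRF1), lower effectors with a response element core (HERC5, IFIT3 at 2 annotated starts, ISG20) and effectors with the core that did not pass (IFIT1, ISG15).
IRF1 (chr5:132490774-132490933, minus strand): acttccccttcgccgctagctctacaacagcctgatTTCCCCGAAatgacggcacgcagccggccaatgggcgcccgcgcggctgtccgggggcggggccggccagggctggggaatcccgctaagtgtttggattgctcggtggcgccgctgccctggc
HERC5 (chr4:88456959-88457118, plus strand): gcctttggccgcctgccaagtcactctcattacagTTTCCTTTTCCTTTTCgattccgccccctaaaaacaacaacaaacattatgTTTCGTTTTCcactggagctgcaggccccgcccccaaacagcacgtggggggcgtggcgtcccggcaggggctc
IFIT3 first start (chr10:89327837-89327996, plus strand): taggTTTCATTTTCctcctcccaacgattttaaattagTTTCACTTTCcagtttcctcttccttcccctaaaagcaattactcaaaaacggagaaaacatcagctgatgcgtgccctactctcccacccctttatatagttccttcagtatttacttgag
IFIT3 second start (chr10:89332369-89332528, plus strand): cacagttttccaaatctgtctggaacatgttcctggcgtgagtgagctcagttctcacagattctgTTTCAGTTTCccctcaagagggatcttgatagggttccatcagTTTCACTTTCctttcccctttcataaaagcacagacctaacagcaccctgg
ISG20 (chr15:88638856-88639015, plus strand): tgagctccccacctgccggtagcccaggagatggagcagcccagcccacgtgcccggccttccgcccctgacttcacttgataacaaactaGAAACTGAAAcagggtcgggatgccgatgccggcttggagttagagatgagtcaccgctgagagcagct
IFIT1 (chr10:89392463-89392622, plus strand): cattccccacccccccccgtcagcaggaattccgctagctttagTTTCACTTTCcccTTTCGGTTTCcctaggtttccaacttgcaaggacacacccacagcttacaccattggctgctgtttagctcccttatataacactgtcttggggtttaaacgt
ISG15 (chr1:1013337-1013496, plus strand): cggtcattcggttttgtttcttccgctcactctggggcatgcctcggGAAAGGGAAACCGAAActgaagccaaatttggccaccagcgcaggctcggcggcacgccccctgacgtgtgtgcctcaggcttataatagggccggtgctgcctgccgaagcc

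In these stretches HERC5 holds 3 matches of the response element core, IFIT1 and ISG15 hold 2 each, and IFIT3 holds 2 at each start. Matches that overlap each other run together in the capitals of HERC5 and ISG15. The core was in the windows of 27 of 37 effectors (73.0%), beside 4.38% of all 27305 genes with a window. It was in 0 of the 6 receptor and IRF genes with a window, while IRF2, IRF7 and IFNAR2 had none and were not searched. The core was in 10 of 16 effectors that were lower (62.5%) and in 16 of 20 that did not pass (80.0%). The gamma-activated core was in 13 of 43 genes (30.2%), beside 9.38% of all genes, and among the receptor and IRF genes it was in IRF1 and IRF9. A match is a run of letters, not a measured binding site.

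The interferon regulatory factors held the largest changes among the receptor, STAT and IRF genes. Of the 9 measured, 6 were lower (66.7%), 0 were higher and 3 did not pass, beside 10.0% of all genes lower and 6.72% higher. At an unadjusted limma p under 0.05, 7 were lower and 1 was higher, but the share of all genes at that threshold was not computed. The median log2 fold change of the 9 was -0.26. IRF7, the factor that drives production of type I interferons, had values of -0.64, -0.94 and -0.89 in LP-1/Cfz cells, against 0.36, 0.24 and 0.46 in LP-1 cells. The groups were far apart, with a log2 fold change of -1.18 ± 0.0916 (SE, limma, n = 3 each), or 2.26-fold lower, and an adjusted p of 0.000135. IRF2, which can occupy the sites that IRF1 binds and block them, had -0.84, -0.63 and -0.98 in LP-1/Cfz cells, against -0.16, -0.10 and -0.12 in LP-1 cells. Its fold change was -0.69 on the log2 scale (limma adjusted p = 0.00134), with the LP-1/Cfz arrays spread more widely than the LP-1 arrays.

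IRF1, an activator of many interferon gamma targets whose own promoter holds the gamma-activated core printed here, had -1.62, -1.77 and -1.71 in LP-1/Cfz cells, against -1.24, -1.28 and -1.26 in LP-1 cells. All LP-1/Cfz arrays were under all LP-1 arrays, with a log2 fold change of -0.44 ± 0.0543 (SE, limma, n = 3 each; adjusted p = 0.00134). Both of its probe sets passed, at -0.56 and -0.32. The call was lost where the arrays were scaled to the same interquartile range (log2 fold change -0.25, limma adjusted p = 0.232). Such scaling also scales each value's offset from the unstated baseline, and the part of that offset in the lost call was not tested. After a second quantile normalization the log2 fold change was -0.20, and it still passed (adjusted p = 0.0361).

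IRF9, which reads the response element together with STAT proteins, had -0.22, -0.16 and -0.26 in LP-1/Cfz cells, against 0.07, -0.01 and 0.07 in LP-1 cells. The difference of -0.25 was small but larger than the spread between arrays (limma adjusted p = 0.0145). The call rests on 1 probe set. A probe set annotated with both RNF31 and IRF9 gave -0.17 and did not pass in limma's test over all probe sets (adjusted p = 0.139). Leaving out LP-1/Cfz replicate 1, LP-1 replicate 1 or LP-1 replicate 3 ended this call, with adjusted p of 0.0502, 0.0656 and 0.0669. IRF8, a factor of B lymphoid and myeloid cells, had -0.04, -0.12 and -0.21 in LP-1/Cfz cells, against -0.31, -0.35 and -0.27 in LP-1 cells. Here the LP-1/Cfz arrays were above the LP-1 arrays, and the difference of 0.18 did not pass (limma adjusted p = 0.0709) except in some alternatives, among them the fit without LP-1/Cfz replicate 3 (adjusted p = 0.0319).

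Of the 4 receptor chains, 1 chain of each receptor passed. IFNAR2 had -0.10, -0.07 and -0.14 in LP-1/Cfz cells, against 0.21, 0.26 and 0.28 in LP-1 cells. Its log2 fold change was -0.35 (limma adjusted p = 0.00226), and its 3 probe sets gave -0.58, -0.38 and -0.10, the last of which did not pass. IFNGR1 had -0.29, -0.37 and -0.43 in LP-1/Cfz cells, against -0.13, -0.11 and -0.08 in LP-1 cells, a log2 fold change of -0.26 (limma adjusted p = 0.0155). Leaving out any 1 LP-1 array ended the IFNGR1 call, with adjusted p of 0.052 to 0.0693.

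The other chains did not pass. IFNAR1 had -0.17, -0.13 and -0.26 in LP-1/Cfz cells, against -0.02, -0.07 and 0.02 in LP-1 cells, with a log2 fold change of -0.16 (limma adjusted p = 0.085). Its 4 probe sets differed, at -0.34, -0.30, -0.03 and 0.01, and the first 2 of these passed. IFNGR2 had a log2 fold change of -0.04 (95% confidence interval -0.19 to 0.099), with overlapping groups. IFNAR2 minus IFNAR1 was 0.087 ± 0.0267 in LP-1/Cfz cells and 0.28 ± 0.0494 in LP-1 cells (log2, mean ± SD, n = 3 each), a pair chosen after its values were seen and given as a description.

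**Figure D2:**
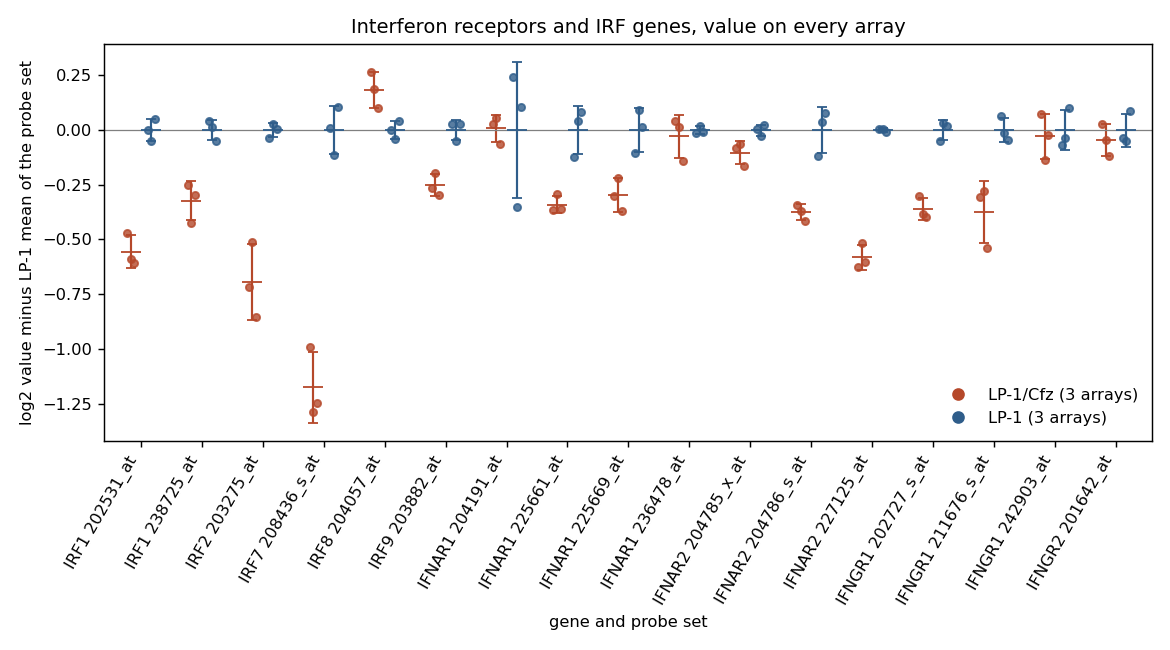
Value of every array for each probe set of the 9 receptor and IRF genes, as the log2 value relative to the mean of the LP-1 arrays, with LP-1/Cfz arrays to the left and LP-1 arrays to the right of each position. Points are arrays, and dashes with bars are group means and SD. The single probe set of IRF7 shows the widest gap between the groups, while the probe sets of IFNAR1 and IFNAR2 give unequal differences.

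Fewer effectors were lower than did not pass. Of the 47 measured, 17 were lower (36.2%), 1 was higher and 29 did not pass, beside 10.0% of all genes lower and 6.72% higher. Their median log2 fold change was -0.10, or -0.024 after a second quantile normalization and -0.022 with the arrays scaled to the same interquartile range. SP110, a protein of nuclear bodies, had -0.78, -0.88 and -0.94 in LP-1/Cfz cells, against 0.43, 0.41 and 0.44 in LP-1 cells. It was 2.45-fold lower (log2 fold change -1.29 ± 0.0555, SE, limma, n = 3 each; adjusted p = 7.38e-06), and each of its 5 probe sets passed, at -0.64 to -1.58. HERC5, the ligase that attaches the ubiquitin-like protein ISG15 to other proteins and whose promoter stretch holds 3 response element cores, had -2.19, -1.75 and -2.34 in LP-1/Cfz cells, against -0.65, -0.99 and -0.95 in LP-1 cells. Its groups were also apart but more scattered, with a log2 fold change of -1.22 (limma adjusted p = 0.00151).

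SAMD9L, which restrains growth and viral replication, had 0.47, 0.48 and 0.38 in LP-1/Cfz cells, against 1.35, 1.31 and 1.34 in LP-1 cells. ISG20, an exonuclease that degrades RNA, had -0.53, -0.53 and -0.64 in LP-1/Cfz cells, against 0.28, 0.29 and 0.30 in LP-1 cells. In these genes the arrays of each group lay close together, and the log2 fold changes were -0.89 for SAMD9L and -0.86 for ISG20 (limma adjusted p = 2.69e-05 and 3.48e-05), with each of their 3 and 2 probe sets past the threshold.

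OAS1, which makes the oligoadenylates that activate RNase L, had -0.66, -0.57 and -0.33 in LP-1/Cfz cells, against 0.35, 0.35 and 0.28 in LP-1 cells. Its log2 fold change was -0.85 (limma adjusted p = 0.000506). The 2 probe sets of OAS1 were unequal, at -1.23 and -0.47, and the smaller did not pass (adjusted p = 0.0715). IFIT3, a partner of the RNA-binding IFIT proteins, had -0.72, -0.79 and -0.64 in LP-1/Cfz cells, against 0.09, 0.25 and -0.02 in LP-1 cells. Its log2 fold change was -0.82 (limma adjusted p = 0.000357), and both of its probe sets passed although they gave -1.33 and -0.32.

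APOL6, an apolipoprotein L of the cell interior, had -1.09, -1.35 and -1.18 in LP-1/Cfz cells, against -0.64, -0.42 and -0.59 in LP-1 cells (log2 fold change -0.66, limma adjusted p = 0.00176). XAF1, which binds the apoptosis inhibitor XIAP, had -0.14, -0.25 and 0.11 in LP-1/Cfz cells, against 0.45, 0.61 and 0.51 in LP-1 cells (log2 fold change -0.61, limma adjusted p = 0.00361). Neither gene's groups overlapped. Probe sets again differed, with 2 of 4 past the threshold for APOL6 (-1.16 and -0.83) and 2 of 3 for XAF1 (-1.18 and -0.68, the other at 0.02).

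PLSCR1, a phospholipid scramblase, had -0.61, -0.63 and -0.66 in LP-1/Cfz cells, against -0.03, -0.05 and -0.06 in LP-1 cells. PARP14, a mono-ADP-ribosyltransferase, had -0.73, -0.88 and -0.69 in LP-1/Cfz cells, against -0.26, -0.14 and -0.19 in LP-1 cells. IFI16, a sensor of DNA in the nucleus, had -0.66, -0.66 and -0.88 in LP-1/Cfz cells, against -0.23, -0.14 and -0.14 in LP-1 cells. These genes were lower by a similar size, at -0.59, -0.57 and -0.56 on the log2 scale (limma adjusted p = 0.000134, 0.000946 and 0.00151), without overlap between the groups. All 3 probe sets of IFI16 passed, 2 of 3 did for PLSCR1, and 1 of 2 did for PARP14 (-1.07, the other at -0.07).

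**Figure D3:**
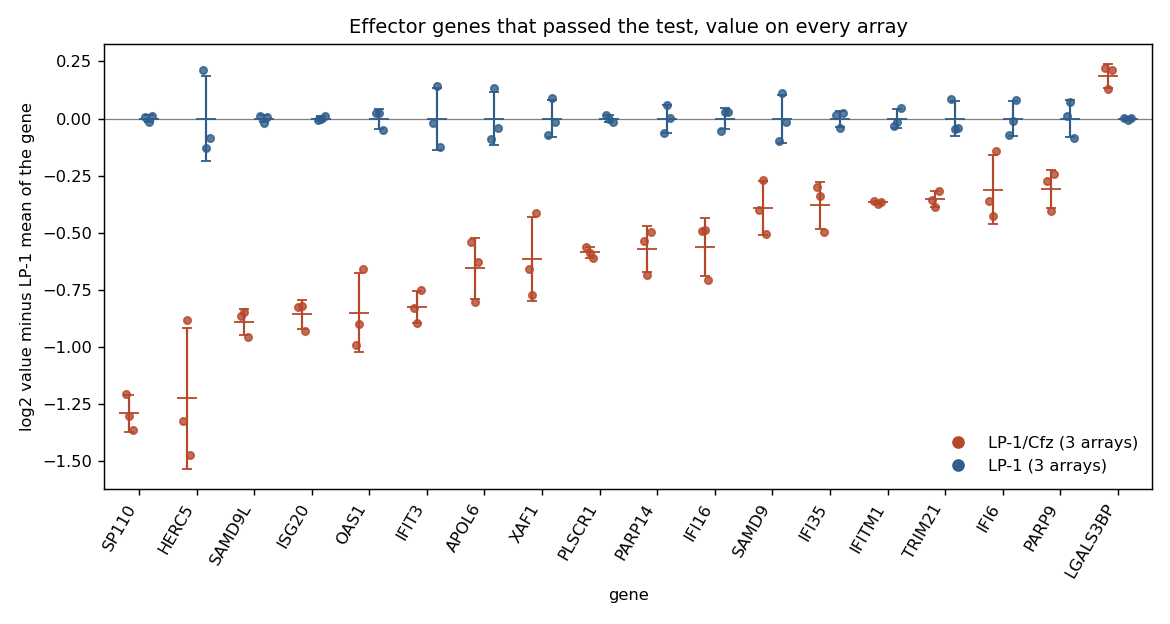
Value of every array for the 18 effectors that passed the test, as the log2 value relative to the mean of the LP-1 arrays, with LP-1/Cfz arrays to the left and LP-1 arrays to the right of each gene. Points are arrays, and dashes with bars are group means and SD. The 17 lower genes run from SP110 at -1.29 to PARP9 at -0.31, and LGALS3BP is the higher gene at 0.19.

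A further 6 effectors were lower by less than 0.4 on the log2 scale, and they are named after their values were seen. They were SAMD9 (-0.39), IFI35 (-0.38), IFITM1 (-0.37), TRIM21 (-0.35), IFI6 (-0.31) and PARP9 (-0.31), with limma adjusted p of 0.0125, 0.00544, 0.00165, 0.0043, 0.0392 and 0.0159. SAMD9 is the close relative of SAMD9L, IFI35 binds the STAT partner NMI, TRIM21 binds antibodies inside the cell, and PARP9 is another ADP-ribosyltransferase of the PARP14 cluster. IFITM1, which keeps viruses from fusing with cell membranes, is nearly identical to IFITM2 in places, and a probe set annotated with both symbols gave -0.39. The IFI6 call was the least stable of these: it rests on 1 probe set, failed without any 1 of the arrays other than LP-1/Cfz replicate 3 (limma adjusted p = 0.0682 to 0.135), and its log2 fold change was -0.093 after a second quantile normalization. The IFI6 probe set did not pass in limma's test over all probe sets (adjusted p = 0.0654). PARP9 failed without LP-1 replicate 1 or LP-1 replicate 2 (adjusted p = 0.0608 and 0.0652).

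LGALS3BP, a secreted glycoprotein that binds galectins, was the only member called higher. It had 0.03, -0.06 and 0.02 in LP-1/Cfz cells, against -0.18, -0.19 and -0.19 in LP-1 cells, with a log2 fold change of 0.19 (limma adjusted p = 0.0374). The difference was small, and the call was lost without any 1 of the arrays other than LP-1/Cfz replicate 2 (adjusted p = 0.0611 to 0.118). The 1 probe set of LGALS3BP did not pass in limma's test over all probe sets (adjusted p = 0.0928).

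Many effectors often used as readouts of interferon did not pass. ISG15, the ubiquitin-like protein that HERC5 attaches, had 0.61, 0.54 and 0.36 in LP-1/Cfz cells, against 0.76, 0.65 and 0.63 in LP-1 cells. The LP-1/Cfz arrays were all under the LP-1 arrays, but by only -0.18 on the log2 scale (95% confidence interval -0.35 to -0.0022, limma adjusted p = 0.163). MX1, a GTPase that blocks viral ribonucleoproteins, had -2.70, -2.93 and -2.31 in LP-1/Cfz cells, against -2.29, -2.33 and -2.36 in LP-1 cells. LP-1/Cfz replicate 3 lay among the LP-1 arrays, and the log2 fold change of -0.32 did not pass (limma adjusted p = 0.172) but was called without that array.

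The 29 effectors that did not pass included RNA sensors, GTPases and membrane proteins. The sensors of viral RNA RIGI and IFIH1 had log2 fold changes of 0.06 (95% confidence interval -0.046 to 0.17) and -0.03 (-0.16 to 0.11). RSAD2, the radical enzyme also called viperin, had 0.02 (-0.15 to 0.18). The guanylate-binding GTPases GBP1, GBP2 and GBP4 had 0.05, 0.13 and 0.00. APOL3 had the highest log2 fold change of all 56 genes, 0.21, which did not pass (-0.065 to 0.48, limma adjusted p = 0.292) and was 0.07 without LP-1/Cfz replicate 1, under that of LGALS3BP (0.17) in the same fit. Over the 32 genes of both kinds that did not pass, log2 fold changes ran from -0.32 to 0.21 with a median of 0.025.

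Genes of the same family or chromosome cluster gave unequal log2 fold changes. The pairs described here were chosen after their values had been seen, so the differences between them are given as a description. SP110 minus SP100, another nuclear body protein encoded nearby on chromosome 2, was -0.89 ± 0.0912 in LP-1/Cfz cells and 0.30 ± 0.0393 in LP-1 cells (log2, mean ± SD, n = 3 each). SP100 itself lay lower on all LP-1/Cfz arrays than on any LP-1 array, but its log2 fold change of -0.10 (95% confidence interval -0.22 to 0.023) did not pass. HERC5 minus HERC6, a related ligase gene nearby on chromosome 4, was -1.89 ± 0.432 in LP-1/Cfz cells and -0.66 ± 0.0958 in LP-1 cells, and HERC6 had a log2 fold change of 0.01 (-0.19 to 0.20). In both pairs 1 gene fell and its neighbour did not pass.

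The oligoadenylate synthetases and the IFIT genes showed the same unevenness. OAS1 minus OAS3, the next gene on chromosome 12, was -0.58 ± 0.137 in LP-1/Cfz cells and 0.35 ± 0.211 in LP-1 cells, and OAS3 had a log2 fold change of 0.08 (-0.18 to 0.34). OAS2 had -0.23 (-0.40 to -0.049) and did not pass (limma adjusted p = 0.0866), except without LP-1/Cfz replicate 1, where it was called lower. IFIT3 minus IFIT1, on chromosome 10, was -0.06 ± 0.0779 in LP-1/Cfz cells and 0.63 ± 0.316 in LP-1 cells. IFIT1, which binds foreign RNA and whose promoter stretch holds 2 response element cores as those of IFIT3 do, had a log2 fold change of -0.14 (-0.39 to 0.11), and IFIT2 and IFIT5 did not pass either. The 2 probe sets of OAS1 (-1.23 and -0.47) and the 2 of IFIT3 (-1.33 and -0.32) also differed from each other. SAMD9L and SAMD9 were both lower, and SAMD9L minus SAMD9 was 0.60 ± 0.0697 in LP-1/Cfz cells and 1.10 ± 0.121 in LP-1 cells.

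**Figure D4:**
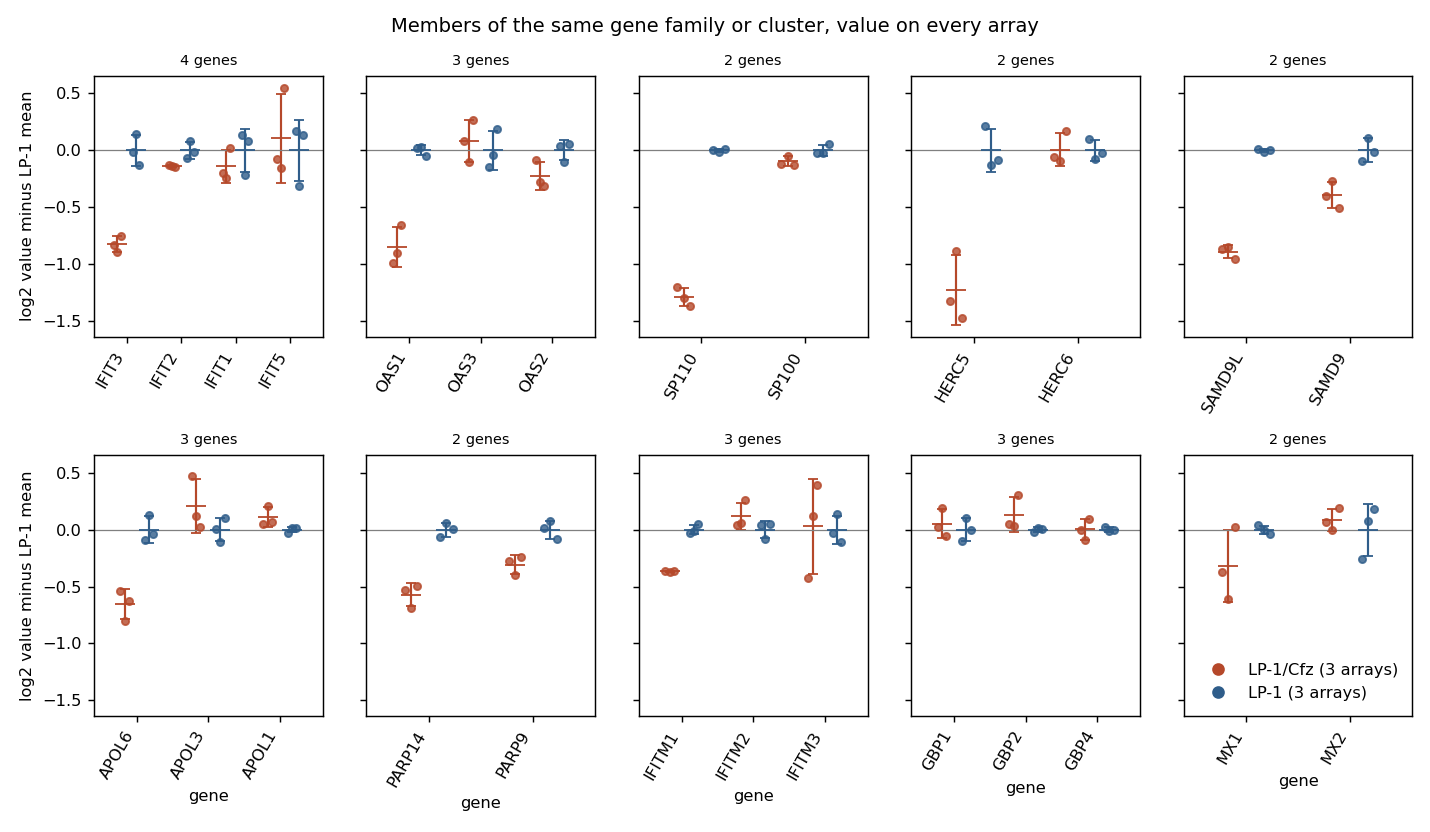
Value of every array for members of 10 gene families or clusters, as the log2 value relative to the mean of the LP-1 arrays, with LP-1/Cfz arrays to the left and LP-1 arrays to the right of each gene. Points are arrays, and dashes with bars are group means and SD. IFIT3, OAS1, SP110, HERC5 and APOL6 lie under 0 in LP-1/Cfz cells, while IFIT1, OAS3, HERC6 and APOL3, their relatives, overlap the LP-1 arrays. SP100 lies just under the LP-1 arrays.

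Other genes of the pathway were taken from lists by role. Of 101 measured, 24 were lower (23.8%), 4 were higher and 73 did not pass, beside 10.0% of all genes lower and 6.72% higher. In limma's test 0 of the 18 interferon ligands passed in either direction, and their log2 fold changes ran from -0.09 to 0.24. At an unadjusted p under 0.05, 0 ligands were lower and 3 were higher, without a computed share of all genes to set beside them. Of 8 kinases and remaining receptor, STAT and IRF genes, 4 were lower and IRF5 was higher (0.29, limma adjusted p = 0.00627). The lower ones were IL10RB (-0.60), the second chain of the interferon lambda receptor, IRF3 (-0.41), TYK2 (-0.30), a kinase bound to IFNAR1, and IFNLR1 (-0.21). Of 10 inhibitors of the pathway, the phosphatase gene PTPN2 was lower (-0.20, limma adjusted p = 0.0257) and the others did not pass, a share near that of all genes. The calls of IFNLR1 and PTPN2 were lost without any 1 of the LP-1 arrays (limma adjusted p = 0.0534 to 0.0812 and 0.0611 to 0.0979) or without LP-1/Cfz replicate 1 (0.0594 and 0.079), and that of PTPN2 also without LP-1/Cfz replicate 2 (0.0631).

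Among 20 listed nucleic acid sensors and adaptors, 4 were lower (20.0%) and 1 was higher, beside 10.0% of all genes lower and 6.72% higher. For the higher gene this is no more than the share of all genes. MYD88, the adaptor of most Toll-like receptors, was at -1.38, -1.78 and -1.64 in LP-1/Cfz cells, against 0.17, 0.16 and 0.22 in LP-1 cells. This log2 fold change of -1.78 (limma adjusted p = 2.16e-05) was larger in size than that of any of the 56 genes. It rests on 1 probe set, and among single probe sets of the 56 genes the largest fall was -1.58 (SP110). AIM2 (-0.94), a DNA sensor, and the kinases TBK1 (-0.30) and IKBKE (-0.24), which phosphorylate IRF3 and IRF7, were lower too, and IRAK1 (0.38), a kinase that acts after MYD88, was higher. The IKBKE call was lost without any 1 of the LP-1 arrays (limma adjusted p = 0.0522 to 0.0654).

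Of 45 further interferon-stimulated genes, 15 were lower (33.3%) and 2 were higher, beside 10.0% of all genes lower and 6.72% higher. For the higher genes this is no more than the share of all genes. CXCL10, a chemokine that attracts T cells, had -0.50, -1.06 and -1.03 in LP-1/Cfz cells, against 1.53, 1.30 and 1.61 in LP-1 cells. It was 5.08-fold lower (log2 fold change -2.35, limma adjusted p = 5.34e-05). DTX3L (-2.11), the ubiquitin ligase partner of PARP9, NMI (-1.66), a STAT-interacting protein, and RTP4 (-1.41) were also lower by more than SP110, with limma adjusted p of 0.000295, 0.000395 and 4.62e-05. The groups were apart for each of them. CXCL10, DTX3L, NMI and RTP4 have 1 probe set each, while SP110 is a mean over 5, at -0.64 to -1.58. LY6E (0.28) and MOV10 (0.24) were higher, with limma adjusted p of 0.0129 and 0.0287. MOV10 was called on the mean of its 2 probe sets, of which 0 passed. MOV10 failed without any 1 array except LP-1/Cfz replicate 3 (adjusted p = 0.0802 to 0.102), and LY6E failed without LP-1 replicate 2 (0.0509).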

How the data were processed

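RNA of 3 LP-1/Cfz and 3 LP-1 samples was measured, 1 Affymetrix array a sample, and groups and replicate numbers were taken from the sample labels. The values are the log2 values that the authors deposited. The submitters' notes name RMA for them, without a version. Each probe set is centred on an unstated baseline, so no filter on dim probe sets could be made, and IQR scaling also scales each value's offset from that baseline. The number of columns of values not used was 0. Of 54613 probe sets, 41091 name 1 gene, 1801 several and 11721 none, and genes were averaged over probe sets that name them alone.

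Differences were tested with limma 3.58.1 (lmFit and eBayes, no covariate) in R 4.3.3, and p-values were adjusted by Benjamini-Hochberg over the 54613 probe sets or the 19775 genes. The fit was tested on simulated data. With 3 against 3 arrays, an exact permutation test cannot go under 0.1 two-sided, and the number of arrays limits the precision. The members, lists and tests were chosen with earlier results of these data known. Named by rule were all receptor, STAT and IRF genes, effectors called with a log2 fold change of 0.4 or more in size, the other effectors with the largest rise and fall, and up to 4 called genes per direction of each further role list. Alternatives were quantile normalization, IQR scaling, array weights, robust eBayes, a minimum fold change of 1.2 (treat), a fold change cutoff of 1.7, the probe sets above the median range, the probe set of largest variance, no _x_at probe sets, the replicate number as a block and leaving out each array. Promoter windows are RefSeq's, on GRCh38.p14. The labels and the paper differ on the serum content, and the labels' value is given.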

Additional observations from a re-analysis of the deposited data

How the results depend on the processing

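Of the 24 genes called, 11 kept their call and direction under all 14 alternatives at the gene level (SP110, HERC5, SAMD9L, ISG20, OAS1, IFIT3, APOL6, PLSCR1, PARP14, IRF2 and IRF7), 7 lost it only with the minimum fold change of 1.2, and 6 lost it elsewhere too (IRF1, IRF9, IFNGR1, IFI6, PARP9 and LGALS3BP). Requiring that minimum fold change left 11 lower genes (9 effectors and 2 receptor, STAT and IRF genes) and 22 lower probe sets. It also left 12 lower genes of the other pathway lists, with 0 higher genes, 0 higher effectors and 0 higher genes of those lists. In that setting 624 of all 19775 genes were called in either direction, against 3312 in the main fit. Of all 54613 probe sets 1312 were called, against 6014. A fold change of 1.7 or more was met by 17 lower member probe sets, beside 1.14% of all probe sets. Under the second quantile normalization, 3 genes were higher (2 effectors and 1 receptor, STAT or IRF gene), 1 probe set was higher and the effector median was -0.024. With IQR scaling 2 genes were higher, 1 of them a receptor, STAT or IRF gene, and the effector median was -0.022. Array weights gave 2 higher genes, 1 of them a receptor, STAT or IRF gene, and 7 higher genes of the other pathway lists. Over all genes, 3415 were called in either direction under the second quantile normalization, 2649 with IQR scaling and 4041 with array weights. With the probe set of largest variance 0 genes and 0 effectors were higher, the receptor, STAT and IRF median was -0.38, and IFNAR1 turned to 0.0072 (limma adjusted p = 0.982) on a probe set that did not pass. IFNLR1, PTPN2 and IRF5 had larger log2 fold changes there, at -0.39, -0.60 and 0.45. Without _x_at probe sets the effector median was -0.13, and among the 27307 probe sets above the median range 1 was higher. The causes of these changes were not tested.

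With single arrays left out, lower genes numbered 19 to 24 and higher genes 0 to 1, lower effectors 15 to 18 and higher ones 0 to 1, lower receptor, STAT and IRF genes 4 to 6 and higher ones 0 to 1. Lower probe sets numbered 31 to 38 and higher ones 0 to 1, and the other pathway lists held 19 to 23 lower and 2 to 7 higher genes, with 7 without LP-1/Cfz replicate 3 and 2 without LP-1 replicate 2. Over all genes these fits called 2080 to 3183 in either direction, and over all probe sets 3395 to 5355. The effector median ran from -0.10 to -0.070 and the receptor, STAT and IRF median from -0.29 to -0.23.

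The labels do not say whether the replicate numbers pair the samples. Deviations of same-numbered samples from their group means correlated at -0.05, 0.13 and -0.01 for numbers 1, 2 and 3. Those of samples with different numbers correlated at -0.12 to 0.13, so these values cannot show a pairing or its absence. With the replicate number as a block, 23 genes were called, 23 of them lower, with 0 higher genes and 0 higher effectors, and over all genes 2641 were called against 3312 without it. Levels and signal over background cannot be read from centred values, so a small difference may belong to a probe set at background.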
